A study of Mus musculus with 6 samples.

Results

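The genes described are the integrin subunits, the laminin chains and the other building blocks of the basement membrane, taken from an RNA sequencing comparison of mouse HL-1 cells. They were picked by gene symbol: the integrin alpha and beta genes, the laminin alpha, beta and gamma genes, the nidogens, the collagen IV chains, Col15a1, Col18a1, Hspg2, Tinag, Tinagl1 and Sparc. Of 22246 genes in the expression table, 48 matched, 24 integrin genes and 24 matrix genes. Itga2, Itgam and Tinag have no row in that table and were not analysed here. HL-1 is an established line that was derived from a mouse atrial cardiomyocyte tumour, and the labels give the strain as C57BL/6 and the tissue as heart for all samples. The groups were HL-1 cells with a control short hairpin RNA (shRNA; 3 libraries) and HL-1 cells with an shRNA directed at Smyd4 (3 libraries), a gene for a SET and MYND domain protein. How the hairpins were delivered, their sequence, the harvest time and whether replicates were grown separately are not stated in these sources. P-values therefore measure the spread between these libraries, which may be technical.

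A basement membrane is a thin sheet of matrix on which cells rest, and each cardiomyocyte is wrapped in one. Laminins, trimers of an alpha, a beta and a gamma chain, and collagen IV form separate networks in it, which nidogens and the heparan sulfate proteoglycan perlecan link to each other. Integrins are heterodimers of an alpha and a beta subunit that hold the cell to this matrix and connect it, through talin and kindlin, to actin; the alpha subunit largely sets which ligand is bound.

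Levels are given as FPKM, fragments per kilobase of gene length after scaling for depth, so they may be compared between genes as well as between libraries. Reads recovered over all genes came to 23414484 to 25267607 per control library and 20755856 to 26387606 per library of the other group. The share of reads on the 48 genes was 0.792% to 0.820% in control and 0.897% to 0.912% in the group labelled Smyd4 shRNA. That difference rests largely on 1 gene, Sparc. The summed FPKM of the 48 genes went from a mean of 1486 in control to 1785 in the labelled group. Sparc alone went from 499 to 799 FPKM, a rise of about the same size, so the share does not describe the set. Replicate 3 of that group stood apart at trace levels: genes with reads in no other library held 572 reads there, on 129 genes, against 178 to 261 reads on 82 to 116 genes in each of the other libraries. Among them were Itga8, Itga9 and the markers Ptprc, Adgre1, Tyrobp, Robo4, Tcf21 and Epcam. Without it 26 of the 29 genes tested below were called, 19 higher and 7 lower, the same numbers as with it. Over all genes 4993 of 11334 were called without it. Smyd4 itself, the target, stood at 12.5, 12.8 and 13.5 FPKM in the control libraries. In the libraries given its shRNA it stood at 12.6, 12.3 and 11.9 FPKM, so the groups overlapped (limma log2 change -0.07 ± 0.04 SE, adjusted p = 0.173). By exact permutation over the 6 libraries (two-sided) p was 0.2, where 3 libraries against 3 cannot give less than 0.1. The target's mRNA therefore goes against the label, and all directions below refer to the label and not to a measured loss of Smyd4. Many defining cardiomyocyte markers were also near absent. Myh6, Myh7, Myl7, Actc1, Tnni3, Ryr2 and Gja5 had means under 0.1 FPKM over the 6 libraries, and Nppa has no row and was not analysed here. Of 12 markers present, 4 reached a mean of 1 FPKM (Tnnt2, Nkx2-5, Gata4 and Nppb). In the limma test below 3 of these 4 were called higher and 1 lower, where 25.1% of all tested genes were called higher and 23.3% lower. The 12 summed to 20.5 to 22.2 FPKM in control and 28.4 to 30.2 FPKM in the libraries labelled Smyd4 shRNA. Markers of other cell types are given beside the results at the end.

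The libraries labelled Smyd4 shRNA had more collagen IV, Sparc, Tinagl1 and nidogen-2 mRNA and less nidogen-1, laminin alpha4 and integrin alpha7 mRNA than the control libraries. Of the 48 genes, 29 reached a mean of 1 FPKM over the 6 libraries and were tested. A gene is called when its limma p is under 0.05 after Benjamini-Hochberg adjustment across the 11325 genes tested. Of the 29, 19 were called higher, 7 lower and 3 did not pass, where 25.1% of all tested genes were called higher, 23.3% lower and 48.3% in either direction. Calls with a log2 change of at least 0.4 in size numbered 16 of 29, against 12.2% of all tested genes. The groups did not overlap in 27 of 29, against 57.8% of all tested genes. The median log2 change was 0.26 over the 29 and 0.02 over all tested genes, and the median size of a change was 0.55 and 0.13. Col4a6, Itga10 and Lama4 were under 1 FPKM in one group and passed the filter through the other group. With both group means at 1 FPKM or more, 17 of 26 were higher and 6 lower, against 2785 higher and 2475 lower of 10994 genes. In that set 13 of 26 were calls of at least 0.4 in size, against 1185 of 10994. The groups did not overlap in 24 of 26, against 6309 of 10994. The median size of a change was 0.40, against 0.13.

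**Figure D1:**
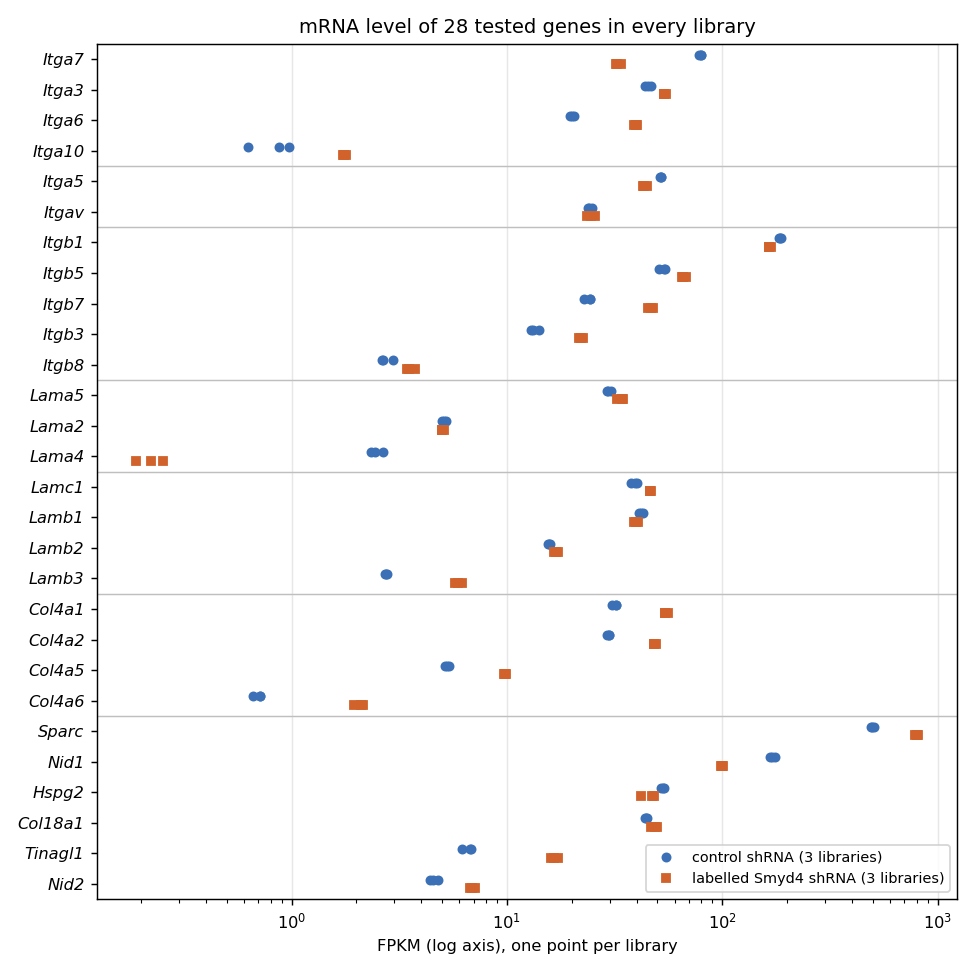
FPKM of 28 of the tested genes on a log axis, one point per library, control in blue circles and labelled Smyd4 shRNA in orange squares; grey lines separate integrin alpha, integrin beta, laminin alpha, laminin beta and gamma, collagen IV and other basement membrane genes. Levels run from 0.190 FPKM (Lama4, a library labelled Smyd4 shRNA) to 813 FPKM (Sparc, likewise), and the points of the groups lie apart in 26 of the 28 genes.

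**Figure D2:**
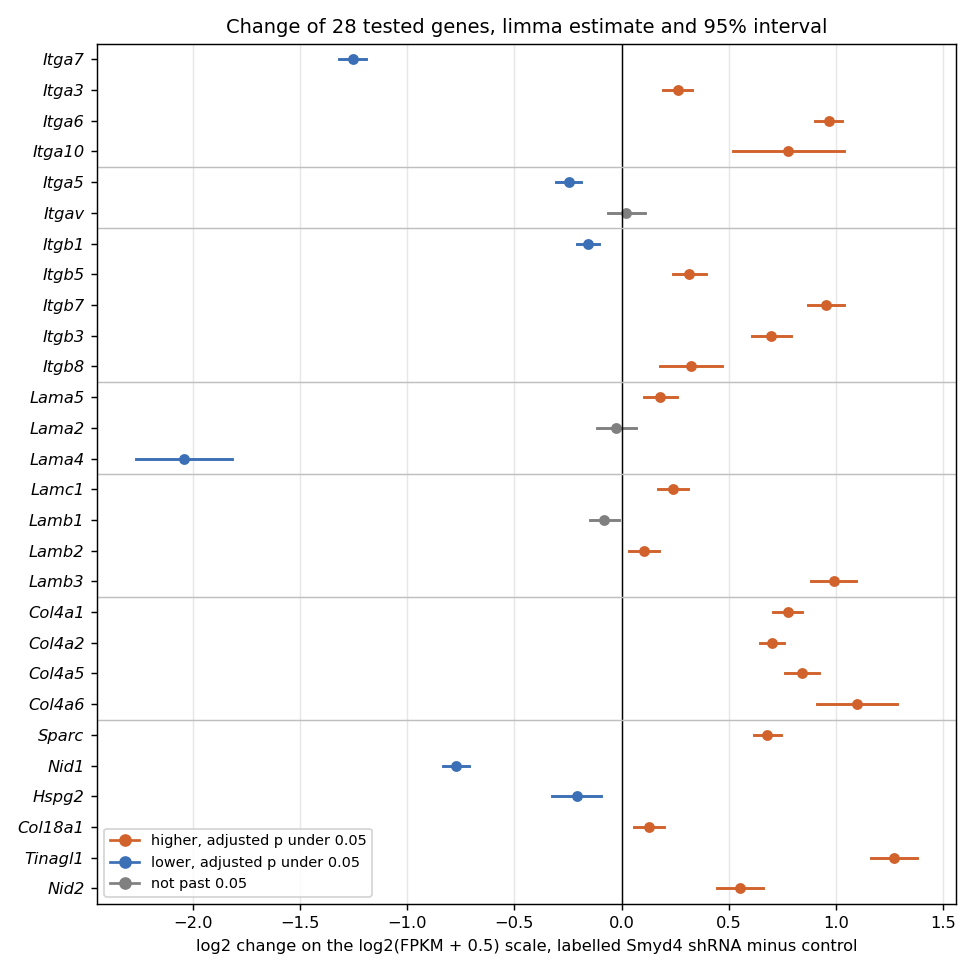
Change of the same 28 genes as the limma log2 change with its 95% interval, on the log2(FPKM + 0.5) scale; orange is called higher, blue lower and grey not past an adjusted p of 0.05. The 4 tested collagen IV genes lie to the right of 0, and Lama4, at -2.04, has the lowest value.

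Collagen IV is the network-forming collagen of basement membranes. Each molecule is a trimer, in most tissues of alpha1 and alpha2 chains, and the genes stand in head-to-head pairs that share the stretch between their start sites. All 4 tested chains rose. Col4a1, the most abundant, held 32.2, 32.2 and 30.7 FPKM in the control libraries and 55.8, 53.9 and 54.1 FPKM in the libraries labelled Smyd4 shRNA. It was thus 1.72-fold higher, a log2 change of 0.78 ± 0.03 SE (limma, adjusted p = 4.9e-07). Col4a2, its partner in the trimer, held 29.8, 29.9 and 29.2 FPKM in control and 49.1, 48.2 and 48.2 FPKM in the others (limma log2 change 0.70 ± 0.02 SE, adjusted p = 3.4e-07). The ratio of Col4a1 to Col4a2 FPKM moved little, from 1.07 ± 0.0152 (SD, n = 3) to 1.13 ± 0.00893 (SD, n = 3). In the authors' gene models these neighbours overlap by 22 bases at their start sites on chromosome 8 (Col4a1 on the minus strand to 11312826, Col4a2 on the plus strand from 11312805, GRCm38), so reads in that short overlap could belong to either. Col4a1 also overlaps Gm44716 and Gm15418, and Col4a5 overlaps Gm15268.

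The second pair, on the X chromosome, is expressed at lower levels. Col4a5, whose human counterpart is mutated in Alport syndrome, held 5.16, 5.27 and 5.36 FPKM in control and 9.72, 9.91 and 9.83 FPKM in the libraries labelled Smyd4 shRNA (limma log2 change 0.84 ± 0.03 SE, adjusted p = 7.6e-07). Col4a6, its neighbour, held 0.713, 0.662 and 0.712 FPKM in control and 2.14, 1.95 and 2.10 FPKM in the others, on 125 to 446 reads per library. Its fold was the largest of the 4, at 2.96 in mean FPKM (limma log2 change 1.10 ± 0.08 SE, adjusted p = 1.9e-05), and the log2(FPKM + 0.5) scale understates it: edgeR on the recovered reads gave 1.56 (adjusted p = 2.2e-15). The ratio of Col4a5 to Col4a6 therefore went from 7.58 ± 0.364 to 4.77 ± 0.280 (SD, n = 3), so the members of this pair did not rise in proportion. The third pair, Col4a3 and Col4a4 on chromosome 1, with 71 bases between the annotated gene models, makes the collagen IV of the kidney filter and was close to absent, with 0 to 4 and 1 to 17 reads per library. Col4a1 made up 47.1% of collagen IV FPKM in control and 47.5% in the others, Col4a2 44.0% and 42.2%, and the sum of all chains went from 67.3 ± 1.11 to 115 ± 1.52 FPKM (SD, n = 3).

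Sequences upstream of the start were sought only for Col4a5, Col4a6, Nid1, Itgb7 and Tinagl1, which were chosen by hand. They are printed where the promoter table (RefSeq, GRCm38.p6, 32 of the 48 genes matched) left at least 100 bases outside annotated exons. Itgb7 gave no such stretch, and the other genes were not examined for one. They are shown for the X-linked pair, whose genes moved in the same direction with 1308 bases between their gene models, and for Nid1 and Tinagl1, which moved in opposite directions. Each runs 5′ to 3′ on the strand of its gene, and capitals mark a CCAAT box (CCAAT) or GC box (GGGCGG) on either strand. Col4a5 lies at chrX:141475169-141475369 (plus strand), Col4a6 at chrX:141474096-141474326 (minus), Nid1 at chr13:13437352-13437550 (plus) and Tinagl1 at chr4:130175123-130175372 (minus).
Col4a5: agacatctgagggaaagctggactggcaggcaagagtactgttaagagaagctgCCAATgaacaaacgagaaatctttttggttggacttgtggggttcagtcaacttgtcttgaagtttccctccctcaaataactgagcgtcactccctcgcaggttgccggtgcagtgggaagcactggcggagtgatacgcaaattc
Col4a6: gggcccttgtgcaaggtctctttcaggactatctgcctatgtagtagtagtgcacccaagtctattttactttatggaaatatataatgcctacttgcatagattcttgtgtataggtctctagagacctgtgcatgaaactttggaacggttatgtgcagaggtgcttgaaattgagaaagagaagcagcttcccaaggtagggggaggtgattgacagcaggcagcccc
Nid1: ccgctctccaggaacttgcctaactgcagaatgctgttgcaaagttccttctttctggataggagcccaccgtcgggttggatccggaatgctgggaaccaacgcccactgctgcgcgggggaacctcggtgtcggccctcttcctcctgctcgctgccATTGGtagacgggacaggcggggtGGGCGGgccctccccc
Tinagl1: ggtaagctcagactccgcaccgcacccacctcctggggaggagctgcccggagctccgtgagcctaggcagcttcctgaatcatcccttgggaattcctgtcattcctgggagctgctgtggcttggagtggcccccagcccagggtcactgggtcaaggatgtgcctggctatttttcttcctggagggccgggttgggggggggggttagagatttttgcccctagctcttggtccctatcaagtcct
The Nid1 stretch has 1 GC box and 1 CCAAT box, written ATTGG on this strand, and the Col4a5 stretch has 1 CCAAT box. The Col4a6 and Tinagl1 stretches hold neither. The full 250-base windows of Col4a5 and Col4a6 do hold a GC box, which does not lie within the stretches printed here. The 32 genes have 37 windows of the full 250 bases before a start, since 5 genes have 2 starts in the table, and the Tinagl1 window that is not printed does hold a GC box. Of the 37 windows, 15 had a GC box and 9 a CCAAT box (40.5% and 24.3%), against 32.7% and 33.8% of all 32851 windows in the table. A TATA box (TATAAA) was in 0 of 37, against 12.4%, and an AP-1 site (TGACTCA) in 1 of 37, against 4.46%. These are matches of letters and no measure of binding.

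**Figure D3:**
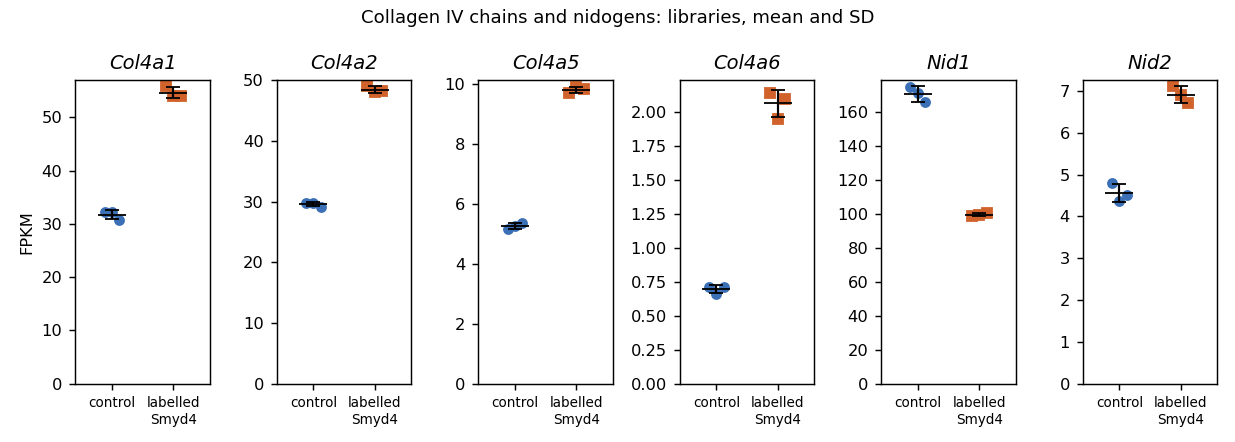
FPKM of the 4 tested collagen IV chains and both nidogens in each library, control in blue circles and labelled Smyd4 shRNA in orange squares, with the group mean (horizontal line) and SD (bars) and each vertical axis from 0. The 4 collagen genes and Nid2 are higher in every library labelled Smyd4 shRNA than in any control library, and Nid1 is lower.

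The linkers of the network moved apart. Nid1, the main nidogen, which bridges laminin gamma1 and collagen IV, held 175, 171 and 166 FPKM in control and 99.0, 99.4 and 100.3 FPKM in the libraries labelled Smyd4 shRNA. It was 1.71-fold lower (limma log2 change -0.77 ± 0.03 SE, adjusted p = 3.2e-07). Nid2, its paralog, held 4.79, 4.37 and 4.52 FPKM in control and 7.13, 6.91 and 6.70 FPKM in the others, a rise of 0.55 ± 0.05 SE on the log2 scale (limma, adjusted p = 4.0e-05). Even so Nid1 still made up 93.5% ± 0.228 of nidogen FPKM, against 97.4% ± 0.0958 in control (SD, n = 3). Nid2 overlaps Rtraf on the opposite strand. Hspg2, the perlecan gene, fell from 52.9 ± 0.931 to 45.8 ± 3.28 FPKM (SD, n = 3; limma log2 change -0.21, adjusted p = 0.0093), with replicate 3 of the labelled group, at 42.0 FPKM, below replicates 1 and 2 at 47.3 and 48.0. Col18a1, a basement membrane collagen whose C-terminal fragment is endostatin, rose from 44.3 ± 0.551 to 48.5 ± 1.62 FPKM (limma log2 change 0.13, adjusted p = 0.0097), and it overlaps Slc19a1 on the opposite strand. Col15a1, its relative, was close to absent at 1 to 7 reads per library.

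Sparc and Tinagl1, which associate with basement membranes without being part of either network, both rose. Sparc, a secreted glycoprotein that binds collagen IV and other collagens, had the highest level of all 48 genes. It held 508, 492 and 496 FPKM in control and 813, 783 and 802 FPKM in the libraries labelled Smyd4 shRNA (limma log2 change 0.68 ± 0.03 SE, adjusted p = 6.9e-07). It rested on 39251 to 71519 reads per library. Tinagl1, a secreted tubulointerstitial nephritis antigen-like protein, held 6.71, 6.85 and 6.20 FPKM in control and 17.18, 16.63 and 16.002 FPKM in the others. This was 2.52-fold higher (limma log2 change 1.27 ± 0.05 SE, adjusted p = 3.9e-07).

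Laminin chains moved chain by chain and not as a family. Among the alpha chains, which carry the integrin-binding domains, Lama4 fell the furthest of all 29 genes. This chain of vascular and muscle basement membranes held 2.65, 2.44 and 2.33 FPKM in control and 0.222, 0.190 and 0.252 FPKM in the libraries labelled Smyd4 shRNA, on 699 to 765 and 58 to 70 reads. The mean was 11.2-fold lower (limma log2 change -2.04 ± 0.10 SE, adjusted p = 1.5e-06), and edgeR on the recovered reads gave -3.50. Lama5, the most abundant alpha chain, held 30.5, 29.2 and 29.5 FPKM in control and 34.5, 34.3 and 32.5 FPKM in the others, a small rise without overlap (limma log2 change 0.18 ± 0.03 SE, adjusted p = 0.0026). Lama2, the alpha chain of muscle basement membranes, whose loss causes muscular dystrophy, did not pass: its means were 5.11 and 5.02 FPKM with a 95% interval of the log2 difference from -0.11 to 0.07 (limma, adjusted p = 0.646). Lama5 thus went from 78.9% ± 0.491 to 84.0% ± 0.339 of laminin alpha FPKM and Lama4 from 6.57% ± 0.303 to 0.552% ± 0.0916 (SD, n = 3).

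The abundant beta chains changed little, and the abundant gamma chain, Lamc1, rose by 18.2%. Lamb1, the leading beta chain, held 42.8, 41.9 and 41.0 FPKM in control and 40.5, 39.5 and 38.8 FPKM in the libraries labelled Smyd4 shRNA. These values did not overlap but did not pass (limma log2 change -0.08 ± 0.03 SE, adjusted p = 0.0525), and edgeR called them lower (adjusted p = 0.0111), a call lost without replicate 3 of the labelled group (edgeR adjusted p = 0.107). Lamb2, the beta chain of synapses and kidney, rose from 15.6 ± 0.163 to 16.9 ± 0.376 FPKM (limma, adjusted p = 0.0195). That call was lost without control replicate 2 or without replicate 1 of the labelled group, at a largest adjusted p of 0.0647. Lamc1, shared by most laminins, rose from 39.1 ± 1.31 to 46.3 ± 0.264 FPKM (limma, adjusted p = 3.6e-04).

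Lamb3, the beta chain that joins alpha3 in the laminin of skin, is a minor chain here and changed more. It held 2.73, 2.74 and 2.78 FPKM in control and 6.19, 5.75 and 5.93 FPKM in the libraries labelled Smyd4 shRNA (limma log2 change 0.99 ± 0.05 SE, adjusted p = 1.4e-06). It overlaps G0s2 and Hsd11b1 on the opposite strand, whose reads could not be told from its own if counting ignored strand, and 4930570N18Rik and Gm37691 on the same strand. Lama3, the alpha chain of that trimer, was near absent at 12, 21 and 13 reads in control and 1, 1 and 9 in the others.

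The alpha subunits of the laminin-binding integrins did not move in one direction. Integrin alpha7, paired with beta1, is the main laminin receptor of skeletal and cardiac muscle, and Itga7 led the alpha subunits in control with 79.9, 79.5 and 77.9 FPKM. In the libraries labelled Smyd4 shRNA it held 33.8, 32.6 and 32.1 FPKM, 2.41-fold lower (limma log2 change -1.26 ± 0.03 SE, adjusted p = 3.3e-08). Itga7 overlaps Mettl7b on the opposite strand. Itga6, a laminin receptor subunit of epithelia and many progenitor cells, moved the other way, from 20.03, 19.68 and 20.39 FPKM to 39.9, 38.9 and 40.1 FPKM. It was 1.98-fold higher (limma log2 change 0.97 ± 0.03 SE, adjusted p = 1.3e-07). Itga3, which binds alpha5-containing laminins, rose from 45.1 ± 1.45 to 54.2 ± 0.635 FPKM (limma log2 change 0.26, adjusted p = 2.1e-04).

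The order of these 3 subunits was therefore different in the groups. Itga7 made up 54.5%, 55.2% and 54.8% of their summed FPKM in control, against 26.3%, 26.0% and 25.5% for the label Smyd4 shRNA. Itga6 went from 13.9% ± 0.405 to 31.3% ± 0.420 and Itga3 from 31.3% ± 0.510 to 42.8% ± 0.0952 (SD, n = 3). The ratio of Itga6 to Itga7 was 0.253 ± 0.00755 in control and 1.21 ± 0.0351 in the others, while the sum of the 3 fell from 144 ± 2.27 to 127 ± 1.71 FPKM (SD, n = 3).

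**Figure D4:**
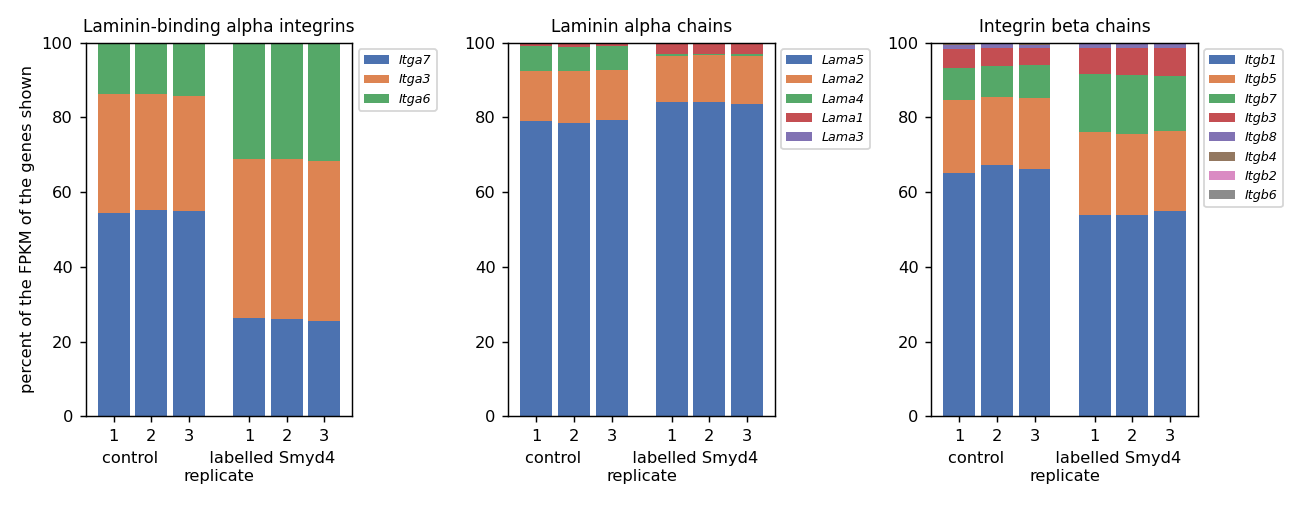
Share of each gene in the summed FPKM of its class, 1 bar per library: the laminin-binding alpha integrins (left), the laminin alpha chains (middle) and the integrin beta chains (right). Itga7 takes 54.5% to 55.2% of the left bars in control and 25.5% to 26.3% in the libraries labelled Smyd4 shRNA, and Itgb1 is the largest share of every right bar.

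Of the collagen-binding alpha subunits, Itga10, known from cartilage, was the one above the limit of the limma test. It held 0.878, 0.968 and 0.631 FPKM in control and 1.73, 1.79 and 1.75 FPKM in the libraries labelled Smyd4 shRNA, on 83 to 235 reads (limma log2 change 0.78 ± 0.11 SE, adjusted p = 7.9e-04). It overlaps Gm42957 on the same strand. Itga1 and Itga11 had 6 to 29 reads per library and were not called (edgeR, adjusted p = 0.378 and 0.274). Itga5, whose protein is the fibronectin receptor with beta1, was the most abundant of the subunits that bind the RGD motif. It held 51.2, 51.7 and 52.0 FPKM in control and 44.5, 43.1 and 42.6 FPKM in the others (limma log2 change -0.25 ± 0.03 SE, adjusted p = 1.4e-04). Itgav, the vitronectin receptor subunit that pairs with several beta chains, did not pass (24.2 and 24.6 FPKM, 95% interval of the log2 difference -0.07 to 0.11; limma, adjusted p = 0.67).

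Of the 5 beta subunits tested with limma 4 rose and Itgb1 fell, and of the 3 at lower levels, described with the low genes, edgeR called all lower. Itgb1, the partner of most alpha subunits, was the most abundant integrin gene and held 183, 185 and 186 FPKM in control and 165, 164 and 168 FPKM in the libraries labelled Smyd4 shRNA. Its fall was small but without overlap (limma log2 change -0.16 ± 0.02 SE, adjusted p = 8.5e-04). Itgb3, which pairs with alphav, held 14.1, 13.2 and 12.9 FPKM in control and 21.6, 22.0 and 22.6 FPKM in the others (limma log2 change 0.70 ± 0.04 SE, adjusted p = 3.9e-06). Itgb5 and Itgb8, other partners of alphav, also rose, Itgb5 from 52.9 ± 1.95 to 66.0 ± 1.56 FPKM (limma, adjusted p = 1.5e-04) and Itgb8 from 2.75 ± 0.188 to 3.56 ± 0.158 FPKM (limma, adjusted p = 0.0034). Itgb3, Itgb5 and Itgb8 rose beside an Itgav level that did not pass the test. Itgb1 went from 66.2% ± 0.965 to 54.3% ± 0.616 of integrin beta FPKM (SD, n = 3).

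Itgb7, the beta subunit of gut-homing lymphocytes, was well expressed while its known partners were near 0. It held 24.3, 22.8 and 24.4 FPKM in control and 46.8, 47.8 and 45.3 FPKM in the libraries labelled Smyd4 shRNA, 1.96-fold higher (limma log2 change 0.95 ± 0.04 SE, adjusted p = 4.7e-07). It rested on 1481 to 3354 reads per library. Its alpha partners are alpha4 and alphaE. Itga4 had 10 to 17 reads in the control libraries and 0 to 5 in the others, with the 5 in replicate 3. Itgae stood at 0.210, 0.240 and 0.198 FPKM in control and at 0.284, 0.389 and 0.179 FPKM in the others, and was not called (edgeR, adjusted p = 0.22). The other leukocyte subunits were as low, with Itgad and Itgax at 0 to 2 reads, Itgal at 1 to 16 and Itgb2, their common beta chain, at 13 to 37. The leukocyte markers Ptprc and Tyrobp were at 0 FPKM in every library but replicate 3 of the labelled group, where they stood at 0.0185 and 0.290 FPKM. Other markers of that list were present. Cd68 was detected in both groups, and Lyz2 was higher in every labelled library than in any control library. The 10 leukocyte markers present summed to 2.14 to 2.59 FPKM in control and 2.71 to 6.08 FPKM in the others. Whether such cells contribute to the Itgb7 level was not tested.

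The 19 genes under a mean of 1 FPKM were Col4a3, Col4a4, Col15a1, Lama1, Lama3, Lamc3, Itga1, Itga11, Itga2b, Itga4, Itga8, Itga9, Itgad, Itgae, Itgal, Itgax, Itgb2, Itgb4 and Itgb6. The edgeR quasi-likelihood test on recovered reads kept 11 of them and called 2 higher and 5 lower, where it called 49.5% of 13775 genes, 23.3% higher and 26.3% lower. Lama1, the laminin alpha chain of the early embryo, rose from 0.263, 0.301 and 0.298 FPKM to 1.222, 1.197 and 1.101 FPKM, on 60 to 72 and 217 to 304 reads (edgeR log2 change 2.02, adjusted p = 2.6e-15). Itgal rose on few reads, 1 to 3 against 11 to 16 (edgeR, adjusted p = 7.6e-05). Itgb6, the epithelial alphav partner, fell from 0.351 ± 0.0609 to 0.151 ± 0.0148 FPKM (edgeR, adjusted p = 2.2e-05), and Itgb4, the hemidesmosome subunit that joins alpha6, from 0.738 ± 0.0956 to 0.553 ± 0.0812 FPKM (edgeR, adjusted p = 0.0123). Itgb2 (edgeR, adjusted p = 0.0153), Lama3 (0.0031) and Lamc3 (2.6e-05, 12 to 15 reads against 0 to 2) fell too. All 7 of these calls were also made without replicate 3 of the labelled group (edgeR). The platelet subunit Itga2b stood at 0.595 and 0.584 FPKM and was not called (edgeR, adjusted p = 0.918). Itga8 and Itga9 had 0 reads in 5 of the 6 libraries, and the 10 and 2 reads found lay in replicate 3 of the labelled group. The authors' deposited table lists 25.2% of all 22246 genes, 11.6% higher and 13.6% lower. It lists 34 of the 48 genes, 22 higher and 12 lower. Among them are all 26 called by limma, with 0 of opposite sign. That table rests on the same 6 libraries, so this overlap is no independent check, and it was not counted over all genes.

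Genes that work with integrins and basement membranes were read from lists outside the 48, by counts only, to be set beside 25.1% higher and 23.3% lower of all genes tested with limma. Of 41 tested adaptors and kinases of focal adhesions, 5 were higher and 18 lower, with a median log2 change of -0.07. Vcl (43.3 to 49.1 FPKM), which links talin to actin, and Tln2 (7.66 to 10.4 FPKM), a talin, rose, while Ptk2b (4.70 to 1.73 FPKM), a kinase related to focal adhesion kinase, and Zyx (50.1 to 34.8 FPKM), a tension-responsive adaptor, fell. Of 18 other matrix receptors and integrin partners, 6 were higher and 11 lower, with a median of -0.20. The collagen receptor Ddr2 (39.2 to 49.5 FPKM) and the amino acid transporter chain Slc3a2 (71.3 to 116 FPKM), which binds beta1, rose, and the tetraspanin Cd82 (64.1 to 28.0 FPKM) and syndecan-2 (Sdc2, 51.1 to 38.6 FPKM) fell. All 8 had limma adjusted p between 1.7e-07 and 0.0014.

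Matrix partners were divided. Of 21 tested genes for folding and assembly of collagen IV, 8 were higher and 4 lower, with a median log2 change of 0.04. The collagen chaperone Serpinh1 (406 to 555 FPKM) and the prolyl hydroxylase subunit P4ha1 (53.7 to 64.6 FPKM) rose beside the collagen IV chains. Pxdn (13.9 to 11.2 FPKM), which makes the sulfilimine cross-links of collagen IV, and Loxl2 (5.20 to 2.74 FPKM), a lysyl oxidase that cross-links it, fell. The accessory basement membrane list had 7 higher and 6 lower of 15 tested, with a median of -0.05, collagen VI (Col6a1, 74.6 to 115 FPKM, and Col6a3, 83.0 to 128 FPKM) up and Ntn1 (13.0 to 4.08 FPKM), a laminin relative, and Col8a1 (15.9 to 8.60 FPKM) down. The list of other integrin ligands had 6 higher and 7 lower of 16, with a median of 0.04. Npnt (27.2 to 52.8 FPKM), a ligand of alpha8 integrin, and Col1a1 (37.6 to 69.3 FPKM), a chain of collagen I, rose, while tenascin-C (Tnc, 27.8 to 4.17 FPKM) and Thbs2 (99.6 to 53.0 FPKM) fell. Of 17 tested proteases, inhibitors and TGF-beta genes, 6 were higher and 7 lower, with a median of -0.02. Mmp2 (45.3 to 4.05 FPKM), the gelatinase that cleaves collagen IV, and Ltbp2 (11.9 to 4.63 FPKM) fell, and Ltbp1 (30.0 to 35.2 FPKM) and Tgfb2 (2.10 to 3.33 FPKM) rose. The 16 genes named here had limma adjusted p between 9.6e-10 and 2.5e-04.

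**Figure D5:**
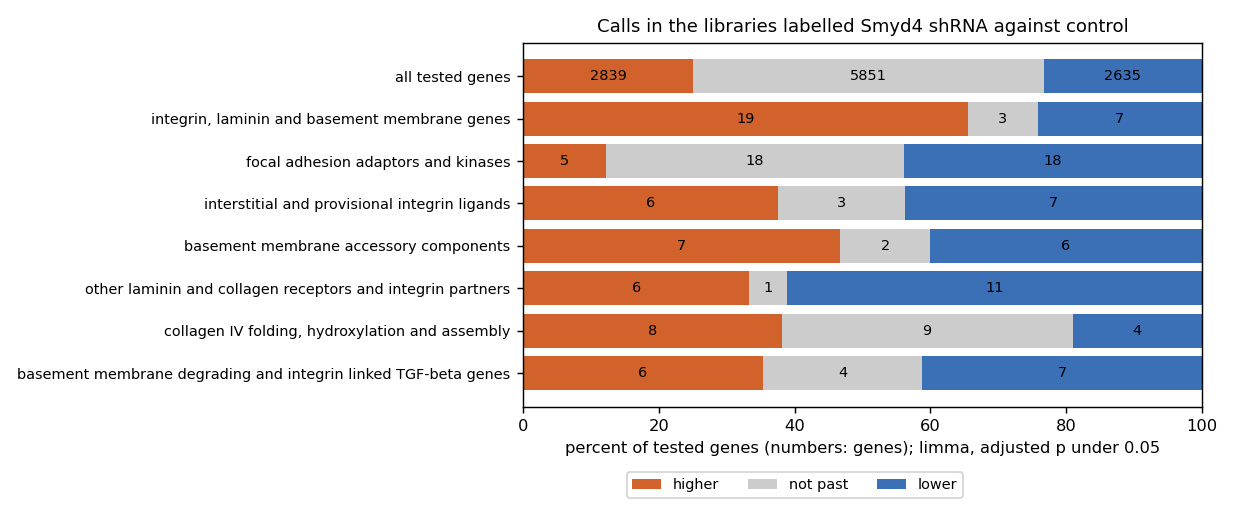
Percent of tested genes called higher (orange), not past the threshold (grey) and lower (blue) in limma, with the number of genes in each block, for all tested genes, the 29 integrin, laminin and basement membrane genes and 6 lists of partner genes. The 29 show 19 higher and 7 lower, and the focal adhesion list 5 higher and 18 lower of 41.

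Markers of other cell types moved along with these results, and their part in them was not tested; in bulk RNA, fewer cells of a type and less RNA per cell cannot be told apart. The summed level of 10 fibroblast markers was 239 to 246 FPKM in control and 270 to 282 FPKM in the libraries labelled Smyd4 shRNA. Within it Col1a1 and Col1a2 (60.5 to 84.9 FPKM) rose, Dcn (26.3 to 1.72 FPKM) and Pdgfra (4.35 to 2.94 FPKM) fell, Col3a1 (114 and 116 FPKM) did not pass, and Lum, Thy1, Postn, Tcf21 and Fap were under 0.1 FPKM in the mean of the 6 libraries, the limit used for all lists here. The 10 smooth muscle and pericyte markers summed to 338 to 351 and to 237 to 244 FPKM, most of it Acta2 (292 to 196 FPKM). Of the 5 tested with limma, 2 were called higher and 3 lower, and not all are named here. Pdgfrb (12.1 to 18.2 FPKM) rose, Notch3 (20.8 to 16.1 FPKM) fell, and Myh11, Rgs5, Kcnj8 and Abcc9 were under 0.1 FPKM. The 8 epithelial markers present summed to 58.8 to 61.9 and to 109 to 114 FPKM, nearly all of it Krt19 and Krt14, with Epcam, Cdh1, Esrp1, Krt5 and Krt18 under 0.1 FPKM. The 10 endothelial markers summed to 0.658 to 0.727 FPKM and to 1.74 to 2.54 FPKM, with Flt1 at 0.473 and 1.66 FPKM and Pecam1, Kdr, Tek, Tie1, Erg, Robo4, Esam and Egfl7 under 0.1 FPKM. The 10 leukocyte markers present summed to 2.14 to 2.59 FPKM and to 2.71 to 6.08 FPKM, led by Cd68 (1.96 and 1.72 FPKM) and by Lyz2, which stood at 0.297, 0.200 and 0.187 FPKM and at 0.544, 0.781 and 3.74 FPKM, with Ptprc, Adgre1, Csf1r, Laptm5, Tyrobp and Ly6g under 0.1 FPKM.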

How the data were processed

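Gene expression was measured by RNA sequencing of 6 HL-1 samples. Per the labels, total RNA was harvested with Trizol before Illumina library preparation. TopHat2 2.0.9 and Bowtie2 2.0.6 with build GRCm38 are named in the submitters' processing notes; counter, annotation, strand setting and test are not given. The authors deposited FPKM for 22246 genes, scaled by 1 size factor per library. The authors' deposited comparison table, limited to adjusted p-values up to 0.0499, gives 5616 genes with a normalized signal (reads over that factor), gene length (an other value, in bases), log2 fold change and p-values. Its signal values were whole multiples of 1 step per library (100% within 1e-04), which gave whole reads for every gene; for 3321 genes, Itga1 among the 48, the length found is the smallest possible and the reads a lower bound.

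FPKM were tested as log2(FPKM + 0.5) with limma 3.58.1 (R 4.3.3; trend), genes at a mean of 1 FPKM or more, Benjamini-Hochberg over all of them. Alternatives were pseudocounts 0.1 and 1, other filters, scalings and variance model, edgeR 4.0.16 and DESeq2 1.42.0 on recovered reads, a replicate block and leaving out each library. Replicate numbers did not pair the samples (correlations of same-numbered deviations -0.0324, 0.0182 and 0.00689). Replicate pairs differed by more than counting noise (chi-square per degree of freedom 1.64 to 2.71). The fits were also run on simulated data with a fixed spread and far fewer changed genes than were called here. That run therefore does not measure their accuracy on these data. The members and lists were chosen with earlier results of these data known. Named were the tested genes of the 48 (1 is not reported here, though counted), with each library's value for calls of at least 0.4 and the highest of each class, and up to 2 rises and 2 falls per partner list. Protein sequences planned for integrin tails were not used here.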

Additional observations from a re-analysis of the deposited data

How the results depend on the processing

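Over 16 alternatives, 25 of the 26 called genes kept their call and direction in every alternative that tested them, and Lamb2 was the exception. The same count was not made over all genes, so it does not set these genes apart. Called genes among the 48 numbered 21 to 34 over the alternatives (26 of 29 in the limma fit), and the number tested differed. The lowest was 21 of 23 at a mean of at least 5 FPKM (4337 of 7833 over all genes). The highest was 34, of 40 with edgeR (6824 of 13775) and of 48 with DESeq2 (5565 of 22244). With a library left out 25 to 27 of 29 were called, 18 to 19 higher and 7 to 8 lower. Over all genes 4536 to 4993 were then called, of 11290 to 11338 tested. The number lower was 13 of 40 tested with edgeR on recovered reads, where 3620 of 13775 were lower over all genes. It was 12 of 48 with DESeq2 on recovered reads (3010 of 22244 over all genes). In limma without a filter it was 9 of 48 (3037 of 22246), against 7 of 29 with the filter at 1 FPKM (2635 of 11325). These settings thus tested more of the 48 genes. Without replicate 3 of the labelled group, an alternative chosen after seeing the data, edgeR called 13 lower and 21 higher of 41 tested. For that fit the share over all genes was not counted. The edgeR test added Lamb1, Itgb2, Itgb4, Itgb6, Lama3 and Lamc3 (lower) and Lama1 and Itgal (higher). Itgav changed sign without replicate 2 of the labelled group (log2 change -0.0095, limma adjusted p = 0.851; -0.0095 to 0.0506 with any library left out) and Lama2 after quantile normalization (0.0155); neither passed in any alternative. Lamb1 passed in 7 of 16, over which its adjusted p ranged from 0.0111 to 0.168. Smyd4 passed in 0 of 16, with the replicate block at a log2 change of -0.07 (limma adjusted p = 0.248). With the replicate block 26 of the 29 genes were called, 19 higher and 7 lower, as without it, and 5141 of all genes against 5474. Over all genes, 2648 were higher and 2785 lower with median of ratios scaling and 2582 and 3037 without a filter, so which direction led changed with the setting. Depth limits the genes under 1 FPKM, such as Col4a3 and Itga9, where 0 to 4 reads per library allow no statement on a difference.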
